A study of Mus musculus with 17 samples.

Results

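The 9 genes described here encode the core of the renin-angiotensin system: renin (Ren1), angiotensinogen (Agt), angiotensin-converting enzyme (Ace), the angiotensin II type 1 receptors (Agtr1a and Agtr1b), a protein that binds the receptor (Agtrap), and 3 membrane peptidases that cut angiotensins (Mme, Enpep and Anpep). They were taken by symbol from a list chosen with earlier results of these data known, out of 53313 genes counted in all 17 RNA-seq libraries of the series. Libraries were made from cultured primary tubular epithelial cells (PTEC), grown out of collagenase-digested mouse kidneys, and from whole kidneys (a piece of the right kidney, snap frozen) of male mice. The strain of both is C57BL/6Rj in the labels and C57BL/6JRj in the methods of the study, and all were labelled WT. Non-senescent (ns) PTEC were untreated cultures at day 6 (n = 4). Senescent (sen) PTEC were cultures at day 16 that had received 10 Gy of γ-irradiation (n = 4), so irradiation and time in culture changed together and cannot be told apart. Kidneys came from mice aged 3, 12 and 24 months (n = 3 each, no treatment). The study uses the culture as an in vitro aging model, and these comparisons ask how the genes of the pathway differ between senescent and non-senescent tubular cells and between young and old kidneys.

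Renin is an aspartyl protease secreted by juxtaglomerular cells, modified smooth muscle cells in the wall of the afferent arteriole. It cuts angiotensinogen, a protein made mostly by the liver and also by proximal tubules, to angiotensin I, which Ace trims to the vasoconstrictor angiotensin II. Angiotensin II acts on type 1 receptors to raise blood pressure, sodium reabsorption and aldosterone release, and it holds renin down by feedback. Ace, Mme, Enpep and Anpep are abundant on the brush border of the proximal tubule. C57BL/6 mice carry Ren1 and lack the duplicate Ren2 found in some other strains.

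Reads assigned to genes numbered between 26963442 and 35409144 in the 8 PTEC libraries and between 37311247 and 66894790 in the 9 kidney libraries. Depth rose with age: it was 37311247 to 49471409 at 3 months, 54097073 to 59718029 at 12 months and 62761670 to 66894790 at 24 months. The 3-month-old kidneys were also counted on another gene set than the older ones (53772 gene identifiers were shared by all kidneys), so age cannot be told apart from depth and processing in any comparison with 3 months. Kidneys at 24 and 12 months were counted alike, but their depths did not overlap, so age cannot be told apart from depth there either. Levels are given in CPM (read counts relative to library size), scaled in this paragraph within the cultures and within the kidneys, so these do not share a scale here. Of the 12 proximal tubule markers, 8 reached a mean of 1 CPM in ns PTEC and 6 in sen PTEC, against all 12 at each age in kidney. The summed level of the 12 was 227 to 869 CPM in ns PTEC, 174 to 355 CPM in sen PTEC and 12164 to 21325 CPM in kidneys. The transporter genes Slc22a6, Slc22a8 and Slc7a13 stayed under 1 CPM in every culture. The cultures, labelled as proximal tubular cells, thus held a small part of the marker RNA of kidney.

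The promoters of 4 genes are shown because Ren1 and Agt carry differences called below and Ace and Enpep are among those that varied together between single kidneys. Each is the 250 bases before the gene's first RefSeq start site in GRCm38.p6, 5′ to 3′ on the gene's strand. Capitals mark matches, on either strand, to the TATA box (TATAAA, or TTTATA on the opposite strand) or to the core letters bound by the tubular factor HNF4 (CAAAGT, or ACTTTG on the opposite strand). Ren1 lies at chr1:133350424-133350673 (+), Agt at chr8:124569707-124569956 (-), Ace at chr11:105967698-105967947 (+) and Enpep at chr3:129332750-129332999 (-). The longest GENCODE model of Ren1 starts 164 bases before the RefSeq start site.
Ren1: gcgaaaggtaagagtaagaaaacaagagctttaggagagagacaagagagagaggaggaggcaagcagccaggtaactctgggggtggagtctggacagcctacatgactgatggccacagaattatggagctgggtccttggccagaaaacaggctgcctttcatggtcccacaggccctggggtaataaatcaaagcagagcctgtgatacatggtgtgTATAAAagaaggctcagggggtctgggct
Agt: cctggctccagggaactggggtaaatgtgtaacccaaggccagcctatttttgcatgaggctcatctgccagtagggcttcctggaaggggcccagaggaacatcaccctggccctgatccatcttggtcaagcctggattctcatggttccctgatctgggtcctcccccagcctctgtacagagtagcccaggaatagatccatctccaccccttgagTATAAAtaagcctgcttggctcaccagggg
Ace: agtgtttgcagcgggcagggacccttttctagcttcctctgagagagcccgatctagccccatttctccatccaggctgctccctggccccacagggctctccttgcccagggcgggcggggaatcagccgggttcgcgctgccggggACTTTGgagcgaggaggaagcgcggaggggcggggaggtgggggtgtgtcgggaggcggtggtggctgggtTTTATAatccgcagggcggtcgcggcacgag
Enpep: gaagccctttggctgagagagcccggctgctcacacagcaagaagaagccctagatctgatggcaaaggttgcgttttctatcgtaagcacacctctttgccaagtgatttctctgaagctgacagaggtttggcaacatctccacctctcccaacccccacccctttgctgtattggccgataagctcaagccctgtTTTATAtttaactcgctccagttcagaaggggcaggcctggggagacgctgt

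The TATA match began 29 bases before the start site in Ren1 and 30 bases before it in Agt, both on the gene's strand. In Ace it began at -31 and in Enpep at -52, both on the opposite strand. Ace also held the HNF4 letters at -102, and its second RefSeq start site at -221. Of 32851 mouse promoters of the same length, 12.4% held the TATA letters and 12.6% the HNF4 letters. The core letters bound by HNF1 (GTTAAT, in 6.43% of promoters) and those of the cAMP response element (TGACGT, in 6.47%) were also searched on both strands and had no match in these upstream windows of the 8 genes with an entry. Among the other genes, Agtr1b held a TATA match at -31, the second of the Mme start sites held the HNF4 letters at -79, and Agtrap and Anpep held none of these letters. Agtr1a had no entry. These matches are descriptions of sequence only.

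Levels were first set side by side across the 5 groups, as CPM scaled over all 17 libraries. Cultures and kidneys differ in material and gene set, and whether they also differ in batch is not stated, so no test was made between them. Renin was all but absent from the cultures: Ren1 averaged 0.144 CPM in ns PTEC, with 1 to 11 reads per library, and 142 CPM in 3-month-old kidneys, 985 times as much. Ace was 72.8 times and Anpep 85.3 times higher in 3-month-old kidneys than in ns PTEC. For Agtr1a the ratio was 9.01, for Agt 2.93, for Agtrap 2.45 and for Enpep 1.99. None of these 7 genes had overlapping ranges between the 2 groups. The ratios depend on the scaling between libraries: without it they were 644 for Ren1, 47.5 for Ace, 55.7 for Anpep, 5.92 for Agtr1a, 1.92 for Agt, 1.61 for Agtrap and 1.30 for Enpep. Mme, which encodes neprilysin, a peptidase that turns angiotensin I into angiotensin-(1-7), was the exception, with 1.31 times the level in kidney and overlapping ranges (0.856 times without the scaling, so that its mean was then higher in ns PTEC). So the cultures overlapped with kidney in Mme and had little of the brush border enzymes Ace and Anpep.

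**Figure D1:**
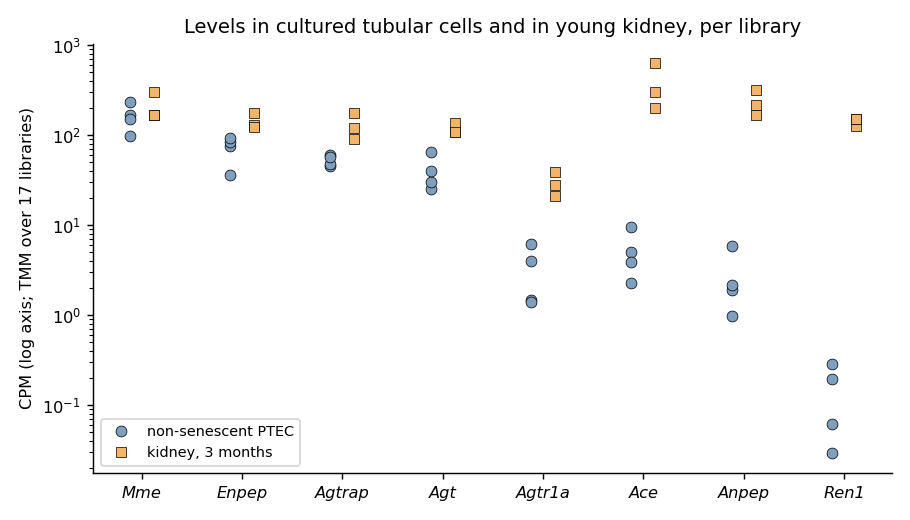
CPM (log axis, scaled over 17 libraries) of 8 of the 9 genes in each ns PTEC culture (circles) and each 3-month-old kidney (squares); Agtr1b is left out because it had no reads in ns PTEC. The symbols overlap for Mme and lie furthest apart for Ren1 (985 times).

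The order of the group means was 3, 12 and 24 months, ns PTEC, sen PTEC for Ren1, and the neighbours at 12 and 24 months and the 2 kinds of culture overlapped. Agt was highest at 24 months, then at 3 and 12 months, in ns PTEC and in sen PTEC, with overlap only between 24 and 3 months. Agtr1a was highest at 12 months, then at 24 and 3 months, in ns PTEC and in sen PTEC, with overlap of neighbours only between 12 and 24 months (1 kidney at 12 months also lay below the highest at 3 months). For Ace, Agtrap, Enpep and Anpep each age overlapped with the next in the order and all ages stood above both cultures. Mme was highest at 24 months, then at 12 and 3 months, in ns PTEC and in sen PTEC, and each of these overlapped with the next. Without the scaling between libraries the order stayed the same for 7 of the 9 genes; it differed for Mme, where ns PTEC came first, and for Agtr1b, while Agtrap then overlapped between sen PTEC and 3-month-old kidneys, Agt between ns PTEC and 12-month-old kidneys, and Enpep between ns PTEC and 3-month-old kidneys. Divided by exon length, levels in 3-month-old kidneys ran from 85.4 CPM per kb for Ren1, 70.8 for Ace, 61.7 for Agt and 56.2 for Anpep, through 30.3 for Agtrap and 30.2 for Enpep, to 18.3 for Mme, 10.5 for Agtr1a and 0.0169 for Agtr1b.

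**Figure D2:**
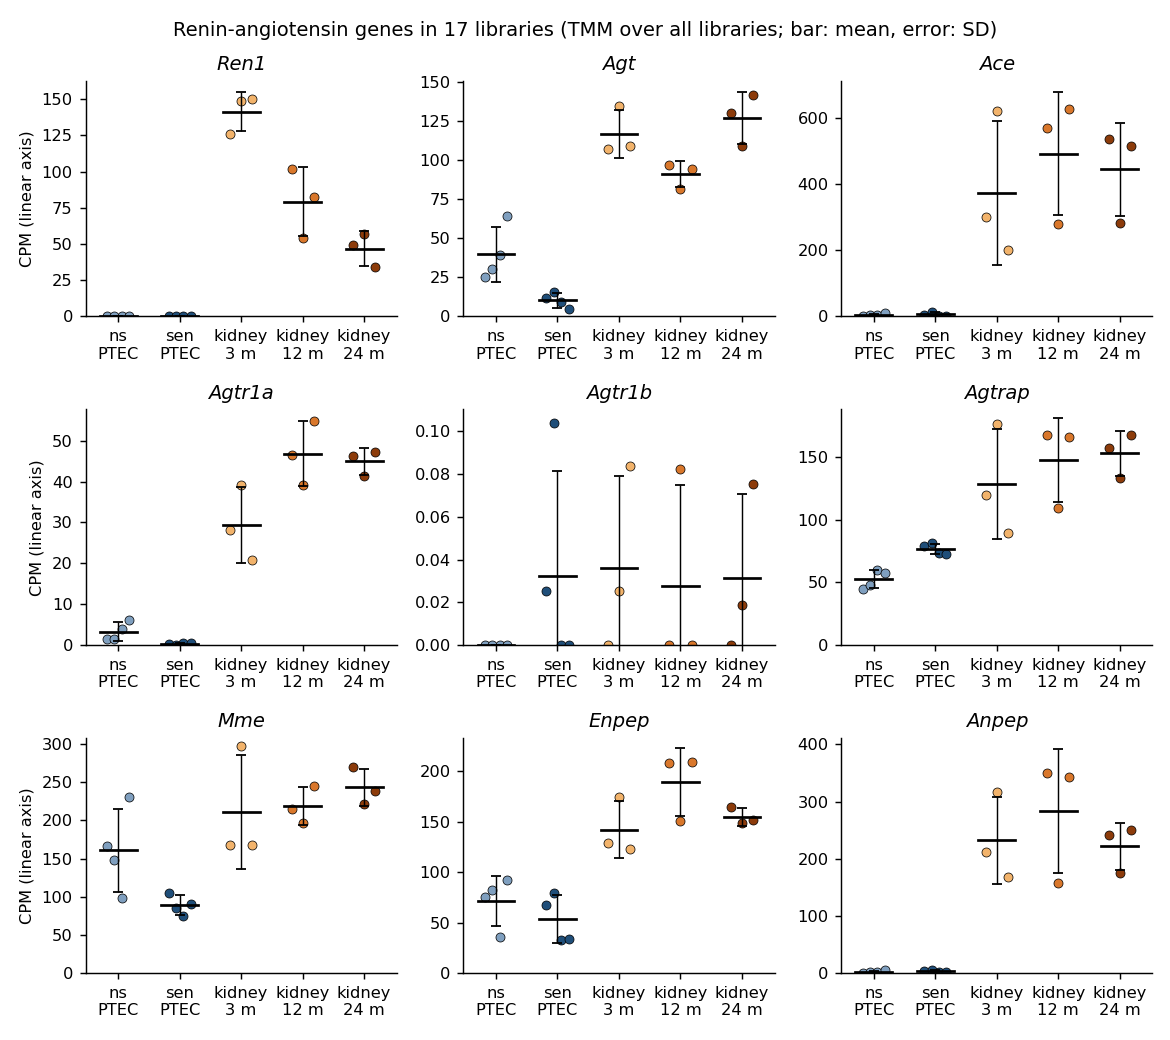
CPM (linear axis, scaled over 17 libraries) of each of the 9 genes in every library of the 5 groups; points are libraries, bars the mean and error bars the SD (n = 4 for PTEC, n = 3 for each age). Ren1 steps down from 3 to 24 months (means of 142, 79.4 and 46.9 CPM), while Agt and Agtr1a are lower in sen than in ns PTEC.

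The first test concerned age. From here on, CPM are scaled within the kidneys or within the PTEC, fold changes are log2 values from edgeR's quasi-likelihood fit with their standard error (SE), and a gene was called at a Benjamini-Hochberg adjusted p under 0.05 with an absolute log2 fold change above 0.5. Of the 9 genes, 8 passed the filter on low counts in kidney (not Agtr1b). Between 24 and 3 months 1 of these 8 was called, Ren1, which was lower; over all tested genes 0.451% were called lower and 2.34% in either direction. At an unadjusted p under 0.05 there were 2, and 2 had groups that did not overlap (Ren1 and Agtr1a), as had 22% of all tested genes. Counts at an unadjusted p are given here and below without a share over all genes, so no excess can be read from them. The median log2 fold change of the 8 was 0.17, beside 0.00 over all genes.

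Renin mRNA (Ren1, chr1:133350510-133360325, +, GRCm38) was the gene of the system with the clearest age difference. Its level was 103, 121 and 121 CPM in the 3-month-old kidneys, 81.2, 43.3 and 66.6 CPM at 12 months, and 40.3, 46.1 and 27.7 CPM at 24 months. Every 12- and 24-month-old kidney lay below every 3-month-old kidney, and the 24-month-old kidneys lay below 2 of the 3 at 12 months. The mean fell from 115 ± 10.6 CPM (SD, n = 3) to 38.1 ± 9.40 CPM (n = 3) between 3 and 24 months, a log2 fold change of -1.59 (SE 0.262, adjusted p = 0.0185), or 3.02-fold lower. At 12 months the mean was 63.7 ± 19.1 CPM. The difference from 3 months was -0.85 (SE 0.257, adjusted p = 0.129) and that of 24 from 12 months -0.74 (SE 0.257, adjusted p = 0.214), and neither was called. The comparisons with 3 months share those 3 kidneys.

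The call for Ren1 rests on few mice. Leaving out 1 kidney at a time gave log2 fold changes of -1.75 to -1.42 between 24 and 3 months, and the call was kept in 2 of 6 cases; adjusted p was 0.0802 without the first and 0.0556 without the third 3-month-old kidney, and 0.0780 without the first and 0.0632 without the third 24-month-old kidney. DESeq2 with the settings of the study gave an adjusted p of 8.80e-07 for the same comparison, and of 0.0280 between 12 and 3 months, where it called Ren1 as well. With the mouse number as a block in edgeR, Ren1 was not called between 24 and 3 months (log2 fold change -1.61, adjusted p = 0.0758), although same-numbered kidneys of these ages did not deviate together. In whole kidney, fewer renin cells and less renin RNA per cell cannot be told apart. The summed level of 10 smooth muscle, pericyte and mesangium markers, the lineage of renin cells, was 196 to 204 CPM at 3 months, 179 to 196 CPM at 12 months and 188 to 232 CPM at 24 months, and none of the 10 was called between 24 and 3 months (median log2 fold change 0.02). The 6 fibroblast markers (0 called) summed to 109 to 126 CPM at 3 and 164 to 192 CPM at 24 months. The 9 leukocyte markers (3 called higher, beside 1.89% of all genes) summed to 81.1 to 127 and 123 to 157 CPM. Of the 12 proximal tubule markers 2 were called higher and 0 lower, with sums of 12164 to 19862 and 16802 to 21325 CPM. The part of these markers in the result was not tested.

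A short list of 8 genes known from renin cells and the neighbouring macula densa was set beside it (Akr1b7, Gja5, Gja4, Rbpj, Foxd1, Adrb1, Nos1 and Ptgs2). Of the 8, Akr1b7 was called lower between 24 and 3 months and none higher, beside 0.451% and 1.89% of all genes. Groups did not overlap for 3 of the 8, beside 22% of all genes, and the median log2 fold change of the list was 0.05. Akr1b7 encodes an aldo-keto reductase that is co-expressed with renin in juxtaglomerular cells. Its level was 2.78, 2.83 and 4.95 CPM at 3 months, 3.35, 2.85 and 2.24 CPM at 12 months and 1.31, 1.17 and 1.27 CPM at 24 months. The 24-month-old kidneys lay below all others. The difference from 3 months was -1.49 (SE 0.273, adjusted p = 0.0277), kept in 1 of 6 cases with a kidney left out (highest adjusted p = 0.0953) and lost when only these 2 ages were fitted (adjusted p = 0.0570). Gja5, the gap junction protein connexin 40 of renin cells, was 4.67 ± 0.161 CPM at 3 and 3.36 ± 0.652 CPM at 24 months (log2 fold change -0.48, adjusted p = 0.292). Adrb1, the β1 receptor through which sympathetic nerves release renin, was 1.42 ± 0.341 and 2.28 ± 0.463 CPM (0.68, adjusted p = 0.229).

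**Figure D3:**
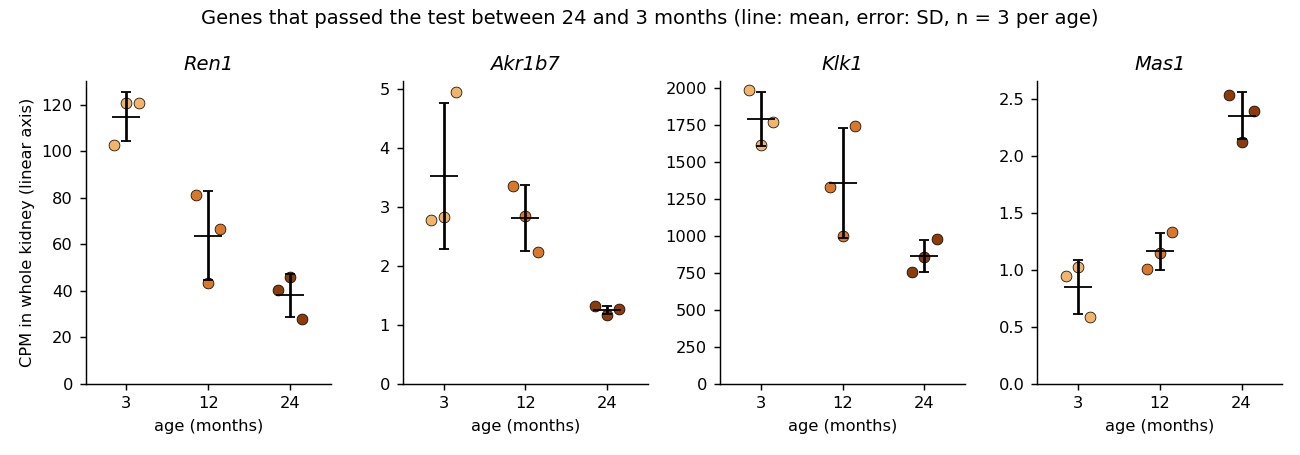
CPM (linear axis) of Ren1, Akr1b7, Klk1 and Mas1 in each kidney at 3, 12 and 24 months; points are mice, lines the mean and error bars the SD (n = 3). In each panel the 3 kidneys at 24 months lie apart from the 3 at 3 months, below them for Ren1, Akr1b7 and Klk1 and above them for Mas1.

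The renin substrate did not follow renin. Agt (chr8:124556534-124569706, -) was at 87.0, 109 and 87.9 CPM at 3 months, 77.6, 65.0 and 76.3 CPM at 12 months and 106, 87.7 and 115 CPM at 24 months. The 12-month-old kidneys were the lowest and overlapped with neither of the other ages. The log2 fold change was 0.12 between 24 and 3 months (SE 0.162, adjusted p = 0.664), -0.38 between 12 and 3 months (SE 0.162, adjusted p = 0.284) and 0.50 between 24 and 12 months (SE 0.162, adjusted p = 0.189), none called. Over the 9 kidneys Agt had r of 0.95 with the summed level of 6 distal and collecting duct markers, picked as the highest of the sums compared. It had r of 0.63 with the podocyte sum and 0.42 with the proximal tubule sum. These are descriptions across kidneys that share libraries, with no test. The distal and collecting duct sum was 4210 to 5701 CPM at 3, 3137 to 3959 CPM at 12 and 4428 to 5833 CPM at 24 months. The part of these sums in the result was not tested.

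Between 12 and 3 months 0 of the 8 tested genes were called by edgeR, where 2.58% of all tested genes were. At an unadjusted p under 0.05 there were 3 (Ren1, Agt and Agtr1a), and DESeq2 called 1 (Ren1), beside 1319 of all genes. Groups did not overlap for 2 (Ren1 and Agt), beside 20.3% of all genes. Between 24 and 12 months 0 of 8 were called, where 1.33% of all genes were. There, 2 had an unadjusted p under 0.05 (Ren1 and Agt), and DESeq2 called 0, beside 977 of all genes. Groups did not overlap for 1, beside 25.6% of all genes. With the mouse number as a block the count over all genes fell from 227 to 0 between 24 and 12 months.

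Ace (chr11:105967945-105989964, +) showed no age call but, of the 8 tested genes, the widest spread between mice at each age. Its level was 244, 506 and 162 CPM at 3 months, 456, 225 and 508 CPM at 12 months and 440, 228 and 421 CPM at 24 months. The highest kidney exceeded the lowest 3.12-fold at 3, 2.26-fold at 12 and 1.93-fold at 24 months. At 3 months 1 kidney stood above the other 2, and at 12 and 24 months 1 stood below the other 2. The log2 fold change between 24 and 3 months was 0.26 (SE 0.458, adjusted p = 0.748), and it ran from -0.05 to 0.84 when a kidney was left out.

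The 3 peptidases and Agtrap had their lowest values in the same kidneys as Ace. Anpep (chr7:79821803-79861059, -), aminopeptidase N, which takes angiotensin III to angiotensin IV, was at 173, 258 and 136 CPM at 3 months, 279, 126 and 276 CPM at 12 months and 197, 141 and 204 CPM at 24 months. Enpep (chr3:129269175-129332720, -), aminopeptidase A, which makes angiotensin III from angiotensin II, was at 105, 142 and 99.4 CPM at 3 months, 166, 120 and 169 CPM at 12 months and 134, 120 and 123 CPM at 24 months. Mme (chr3:63241537-63386030, +) was at 136, 242 and 136 CPM at 3 months, 172, 157 and 198 CPM at 12 months and 220, 178 and 194 CPM at 24 months. In all of these, as in Ace, the lowest kidney was the third at 3 months, the second at 12 months and the second at 24 months, although the first and the third 3-month-old kidneys were level for Mme. Agtrap (chr4:148077061-148088031, -), whose product binds the type 1 receptor and promotes its internalization, had the same 3 lowest kidneys, with 97.7, 143 and 72.0 CPM at 3 months, 134, 87.3 and 134 CPM at 12 months and 129, 107 and 137 CPM at 24 months.

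None of these genes was called in any comparison between ages. Between 24 and 3 months the log2 fold change was -0.06 for Anpep (adjusted p = 0.920), 0.12 for Enpep (adjusted p = 0.706), 0.21 for Mme (adjusted p = 0.612) and 0.25 for Agtrap (adjusted p = 0.586). Between 12 and 3 months Enpep came closest, with 0.40 (SE 0.191, adjusted p = 0.354). Across the 9 kidneys, the 10 pairs among Ace, Agtrap, Mme, Enpep and Anpep had Pearson's r of 0.61 to 0.96, and of 0.73 to 0.97 after the mean of each age was taken off. These are descriptions over kidneys whose values share a library and its scaling. Ren1 had r of -0.27 to 0.17 with the same genes, and of 0.21 to 0.55 after the mean of each age was taken off. Agtr1a was lowest in the same 3 kidneys and had r of 0.84 to 0.95 with the 5 genes within ages, and Agt had r of 0.76 to 0.91. The summed level of the 12 proximal tubule markers was, within each age, lowest in the same 3 kidneys (12164, 14277 and 16802 CPM, and 15490 to 21325 CPM in the other 6), and the 5 genes had r of 0.79 to 0.98 with it. Other sums ran with them as well: the podocyte sum had r of 0.64 to 0.87 with the 5 genes, above that of the proximal sum for Mme (0.824 against 0.812) and Anpep (0.835 against 0.828), the sum of the renin cell list described above had 0.868 with Anpep, and the endothelial sum had 0.817 with Enpep against 0.792. The third kidney at 3 months and the second at 12 and 24 months also deviated together as libraries. Their r was 0.48, 0.56 and 0.75, by the measure given below for same-numbered libraries. The part of these sums in the levels was not tested.

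**Figure D4:**
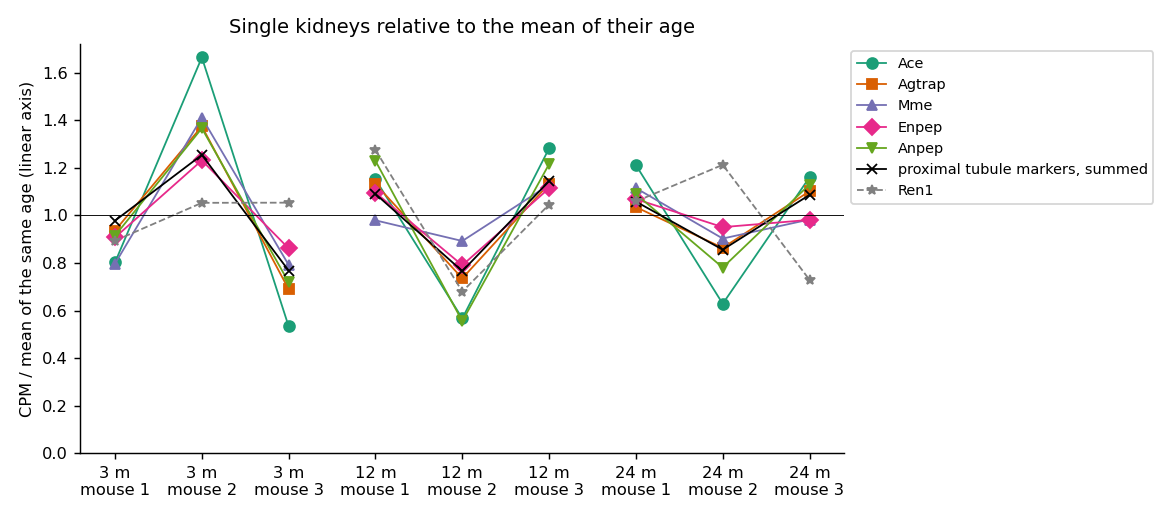
CPM of Ace, Agtrap, Mme, Enpep, Anpep and Ren1 and the summed CPM of 12 proximal tubule markers in each kidney, divided by the mean of the kidneys of the same age (linear axis, 1 is the age mean). The lines of the 5 genes and of the marker sum dip together in the third mouse at 3 months and the second at 12 and 24 months; the grey dashed line of Ren1 dips with them in the second mouse at 12 months (0.680 of the age mean) and is highest in the second mouse at 24 months (1.21).

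Agtr1a (chr13:30336441-30382867, +) encodes the main angiotensin II receptor of rodent kidney. It was at 22.8, 32.0 and 16.8 CPM at 3 months, 37.2, 31.3 and 44.3 CPM at 12 months and 37.8, 33.2 and 38.5 CPM at 24 months. Every 24-month-old kidney was above every 3-month-old one, and at 12 months 1 kidney overlapped with them. The log2 fold change was 0.61 between 24 and 3 months (SE 0.234, adjusted p = 0.220), 0.66 between 12 and 3 months (SE 0.235, adjusted p = 0.192) and -0.04 between 24 and 12 months (SE 0.233, adjusted p = 0.942), none called. Without the second 3-month-old kidney, that between 12 and 3 months was 0.93 and was called (adjusted p = 0.0480). Over the 9 kidneys Agtr1a had r of 0.88 with the proximal tubule sum.

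Agtr1b (chr3:20314473-20367177, -), the second rodent type 1 receptor gene, was close to silent everywhere. Its counts were 0, 1 and 3 at 3 months, 0, 4 and 0 at 12 months, 0, 1 and 4 at 24 months, 0 in all 4 ns PTEC and 1, 4, 0 and 0 in sen PTEC. A count of 0 allows up to 3 reads, which is at most 0.111 CPM in ns PTEC and 0.0804 CPM in kidney (of all reads on genes). No difference was detectable at this depth. The longest stretch that transcripts of Agtr1a and Agtr1b have in common is 66 bases, shorter than the 76-base reads. Windows of 76 bases were shared with no other gene for 8 of the 9 genes, and Mme shared 1 of 11740. Ace overlaps the antisense gene Gm11651 over 295 exon bases, and that gene had 0 to 14 reads.

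The second test concerned senescent PTEC, where 39.8% of all 15434 tested genes were called, so that a call is a common event. Of the 9 genes 7 passed the filter (not Ren1 and Agtr1b). The test called 4 of the 7: Agt, Agtr1a and Mme were lower, where 19.7% of all genes were, and Agtrap was higher, where 20.1% were. DESeq2 also called 4, beside 6453 of all genes. Groups did not overlap for 3 of the 7, beside 42% of all genes, and the median log2 fold change was -0.39 with that over all genes close to 0. Nothing states that the cultures came from separate animals, so the p-values measure the spread between these cultures. As with kidneys, fewer cells of a kind and less RNA per cell cannot be told apart.

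Angiotensinogen fell in sen PTEC. Agt was at 31.0, 38.3, 49.8 and 81.4 CPM in the ns cultures and at 14.7, 20.5, 11.6 and 6.11 CPM in the sen cultures. The groups did not overlap. The mean was 50.1 ± 22.3 CPM (SD, n = 4) in ns and 13.2 ± 5.99 CPM (n = 4) in sen PTEC, a log2 fold change of -1.92 (SE 0.391, adjusted p = 0.00348), or 3.79-fold lower. It was called under each of the 13 alternatives run, with values between -2.20 and -1.59.

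Agtr1a fell further still. It was at 1.81, 1.77, 5.06 and 7.79 CPM in ns PTEC, from 54 to 211 reads, and at 0.290, 0.0670, 0.459 and 0.760 CPM in sen PTEC, from 2 to 22 reads. The receptor was thus a low gene in culture and lower still in sen PTEC, with no overlap. The log2 fold change was -3.37 (SE 0.682, adjusted p = 0.00342), and its sign and call were kept under each of 13 alternatives (-3.86 to -2.86). In both genes the fourth ns culture was the highest, and that culture also had the highest proximal tubule sum (869 CPM, against 227 to 277 CPM in the other 3).

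Agtrap rose. Its level was 56.1, 60.1, 75.4 and 72.8 CPM in ns PTEC and 101, 104, 92.7 and 93.8 CPM in sen PTEC. Every sen culture was above every ns culture. The log2 fold change was 0.57 (SE 0.130, adjusted p = 0.00631), a small change close to the threshold of 0.5: without the first ns culture it was 0.50, just under it, and was not called. So the receptor gene and the gene of its binding protein moved in opposite directions in these cultures.

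Mme fell from 206, 188, 123 and 292 CPM in ns PTEC to 134, 110, 95.4 and 117 CPM in sen PTEC. The groups overlapped through the third ns culture. The log2 fold change was -0.82 (SE 0.237, adjusted p = 0.0187), and the adjusted p was at most 0.0482 when a culture was left out. The other membrane enzymes did not pass the test. Enpep was at 89.9 ± 31.3 CPM in ns and 68.4 ± 30.6 CPM in sen PTEC (log2 fold change -0.39, SE 0.357, adjusted p = 0.400). Ace was at 6.48 ± 3.89 and 7.91 ± 7.87 CPM (0.29, SE 0.662, adjusted p = 0.752), and leaving out a culture took it from -0.64 to 0.75. Anpep was at 3.44 ± 2.73 and 4.70 ± 1.90 CPM (0.45, SE 0.506, adjusted p = 0.499), and without the fourth ns culture it was 1.15 and called higher (adjusted p = 0.0424). Ren1 had 8, 11, 2 and 1 reads in ns and 0, 2, 3 and 1 reads in sen PTEC, too few to test.

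Markers of several other cell types differed between the same cultures, where 20.1% of all genes were called higher and 19.7% lower. The summed level of the 10 smooth muscle, pericyte and mesangium markers was 250 to 385 CPM in ns and 993 to 2308 CPM in sen PTEC (6 called higher, 2 lower), and that of the 6 fibroblast markers 12.1 to 97.0 and 98.3 to 397 CPM (3 of 5 tested called higher). Podocyte markers summed to 95.8 to 219 and 220 to 480 CPM (2 of 5 tested higher). The 6 distal and collecting duct markers summed to 6.58 to 28.8 CPM in ns and 0.518 to 0.865 CPM in sen PTEC (2 of 2 tested lower). Of the proximal tubule markers 4 of 7 tested were lower. The ranges overlapped for the 8 endothelial markers (72.1 to 258 and 80.4 to 302 CPM, 1 called higher and 1 lower) and the 9 leukocyte markers (76.3 to 108 and 53.9 to 206 CPM, 2 of 6 tested lower). The part of these markers in the differences of Agt, Agtr1a, Mme and Agtrap was not tested.

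**Figure D5:**
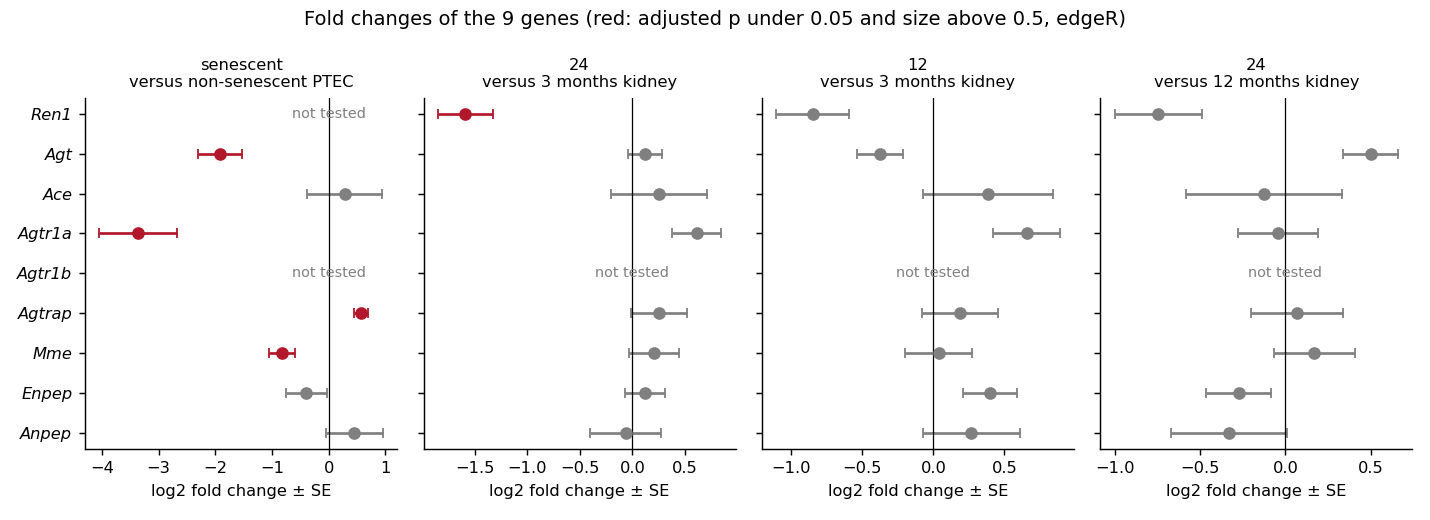
Log2 fold change with SE (edgeR) of the genes that passed the filter, 7 in PTEC and 8 in kidney, in the 4 comparisons; points in red were called (adjusted p under 0.05 and size above 0.5), grey points were not, and each panel has its own scale. The called points are Agt, Agtr1a, Agtrap and Mme in PTEC and Ren1 at 24 against 3 months.

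Further genes of the pathway were read from a list of 17, among them the receptor Mas1, the type 2 receptor Agtr2, the renin receptor Atp6ap2 and other peptidases that make or break angiotensins and kinins. In kidney 12 of the 17 passed the filter. Between 24 and 3 months Mas1 was called higher and Klk1 lower (1 of 12 in each direction, beside 1.89% and 0.451% of all genes), and 5 of 12 had groups that did not overlap, beside 22% of all genes. Mas1, the receptor of angiotensin-(1-7), was at 0.945, 1.02 and 0.585 CPM at 3 months, 1.01, 1.15 and 1.33 CPM at 12 months and 2.53, 2.13 and 2.40 CPM at 24 months, from 26 to 166 reads per kidney. The 24-month-old kidneys stood above all others. The difference from 3 months was 1.46 (SE 0.254, adjusted p = 0.0221); with a kidney left out the call was kept in 1 of 6 cases (1.25 to 1.63, highest adjusted p = 0.0997), and it was lost when only these 2 ages were fitted (adjusted p = 0.0507).

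Klk1, tissue kallikrein, which releases kinins in the distal nephron, was at 1986, 1618 and 1770 CPM at 3 months, 1331, 1001 and 1747 CPM at 12 months and 759, 860 and 978 CPM at 24 months. The 24-month-old kidneys lay below all others. The difference from 3 months was -1.05 (SE 0.212, adjusted p = 0.0402), kept in 1 of 6 cases with a kidney left out (highest adjusted p = 0.187). Its transcripts share 124 of 1046 windows of 76 bases with paralogs of the Klk1b family, so reads may have been split between them. Atp6ap2 was at 122 ± 11.4, 111 ± 2.77 and 106 ± 1.46 CPM at 3, 12 and 24 months (log2 fold change -0.20 between 24 and 3 months, adjusted p = 0.387). Agtr2 had 0 to 5 reads in every kidney and was not tested. Between 12 and 3 months edgeR called 0 of 12, beside 2.58% of all genes, and 0 had an unadjusted p under 0.05. DESeq2 called 0, beside 1319 of all genes, and 1 had groups that did not overlap, beside 20.3%. Between 24 and 12 months edgeR called 0 of 12, beside 1.33% of all genes, and 6 had groups that did not overlap, beside 25.6%. An unadjusted p under 0.05 was found for 4 (Mas1, Klk1, Prcp and Ctsa). DESeq2 called 2 (Mas1 and Prcp), beside 977 of all genes.

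In PTEC 11 of the 17 passed the filter and 4 were called by edgeR, all lower in sen cultures (19.7% of all genes were). DESeq2 called 5, beside 6453 of all genes, and 5 of 11 had groups that did not overlap, beside 42% of all genes. Klk1 had 15 to 42 reads in each ns culture and 0 in every sen culture, at least 9.68-fold lower against a floor of 3 reads per library. Rnpep, aminopeptidase B, was at 101 ± 22.0 CPM in ns and 62.7 ± 6.19 CPM in sen PTEC (log2 fold change -0.69, adjusted p = 0.00695). Nln, neurolysin, was at 72.4 ± 5.69 and 47.1 ± 5.88 CPM (-0.62, adjusted p = 0.00386). Prep, prolyl endopeptidase, was at 172 ± 26.4 and 113 ± 7.75 CPM (-0.60, adjusted p = 0.00651). Atp6ap2 was at 130 ± 14.2 and 141 ± 2.37 CPM (0.11, adjusted p = 0.461). Mas1 had 0 to 9 reads and Agtr2 none in any culture. Of the renin cell list, 5 of 8 genes were tested and Gja5 (-2.47, SE 0.664, adjusted p = 0.0139) and Gja4 (-1.23, SE 0.338, adjusted p = 0.0154), both connexin genes that endothelium expresses as well, were lower in sen PTEC. For Gja5 the value was -1.80 without the second ns culture and -3.10 without the second sen culture, and it was called in both cases.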

How the data were processed

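RNA of 8 PTEC cultures and 9 mouse kidneys was sequenced by the authors from poly(A) selected, directional libraries as paired reads of 76 bases. The authors deposited raw counts per gene, 1 file per library, made with nf-core/rnaseq 1.4.2 on GRCm38; the aligner, the counter and its strand setting are not given in the sources used here. The deposited counts were used as they are. Identifiers were matched without version; symbols, positions and exon lengths came from GENCODE M21, and promoters from RefSeq (GRCm38.p6; 8 of 9 genes matched).

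PTEC and kidneys were fitted apart in edgeR 4.0.16 (R 4.3.3; TMM, filterByExpr, robust quasi-likelihood test, Benjamini-Hochberg over all tested genes), the 3 ages in 1 fit with a shared spread. SE is the log2 fold change over the square root of F. Thresholds (0.05 and 0.5) are those of the study. DESeq2 1.42.0, RLE scaling, no filter, a replicate block, 2 ages only, a threshold of 1 and leaving out each library were alternatives. Correlations used log2 CPM. The code was tested on simulated data with 1 spread for all genes. With 3 against 3 kidneys it recovered 36 of 109 2-fold and 90 of 91 4-fold changes. With 4 against 4 PTEC it recovered 54 of 88 and 112 of 112. Differences between ages of about 2-fold can thus go uncalled. Depth sets the precision: a gene with few reads, such as Agtr1b, can show no difference, and intervals of reads cover counting error only. Plots were made with matplotlib 3.10.9.

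The genes, lists and motifs were chosen with earlier results of these data known. The 9 genes are named in each comparison; of other pathway genes, Mas1, Agtr2 and Atp6ap2 and any that was called (1 more is not reported here); of the renin cell list and an aldosterone response list (9 genes) those called, and Gja5 and Adrb1 in kidney were added after their values were seen. Same-numbered ns and sen cultures deviated together (r of 0.28, 0.38, 0.61 and 0.19), as did kidneys at 12 and 24 months (0.38, 0.56 and 0.17). Some differently numbered libraries did so as well. The third kidney at 12 and the first at 24 months had r of 0.27, above that of the third at both ages. The second ns and the first sen culture had r of 0.26. A pairing by number thus rests on the data alone and is uncertain, and the main tests used no block. No 2 libraries of a group agreed within sampling noise.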

Additional observations from a re-analysis of the deposited data

How the results depend on the processing

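The number of the 9 genes called stayed the same under RLE scaling and without the filter in all 4 comparisons. In PTEC it was 4, 2 with a log2 fold change above 1 (Agt and Agtr1a), and 3 to 5 with a culture left out. Between 24 and 3 months it was 1 (Ren1), 0 with the replicate block, where Ren1 had an adjusted p of 0.0758, and 0 to 1 with a kidney left out. Between 12 and 3 months it was 0, 1 with DESeq2, and 0 to 1 with a kidney left out. Between 24 and 12 months it was 0 throughout. The causes were not tested. With the replicate block it was 4 in PTEC and 0 in both other comparisons, and no other call of these 9 genes changed. The calls of Mas1, Klk1 and Akr1b7 between 24 and 3 months were also lost with the block (adjusted p of 0.0901, 0.0843 and 0.102). Kidneys at 3 months did not deviate together with same-numbered older ones (r of -0.70 to -0.03). Over all genes, 399 were called between 24 and 3 months, 1279 with DESeq2, 126 with the block, 265 with only these ages fitted and 74 to 794 with a kidney left out. Between 12 and 3 months these were 441, 1319, 118, 64 and 52 to 716, and between 24 and 12 months 227, 977, 0, 187 and 1 to 63. In PTEC 6144 genes were called, 6453 with DESeq2, 6876 with the block, 3753 above 1 and 5001 to 6597 with a culture left out.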

Other observations

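Downstream of the pathway, 9 genes of the aldosterone response were read in the same libraries, and all 9 were tested. In sen PTEC 4 of them were lower and 0 higher, where 19.7% of all genes were lower: the subunits of the epithelial sodium channel, Scnn1a (38.4 ± 11.2 against 124 ± 75.6 CPM, log2 fold change -1.70, adjusted p = 0.00583), Scnn1b (0.501 ± 0.385 against 6.14 ± 6.45 CPM, -3.58, adjusted p = 0.00522) and Scnn1g (0.563 ± 0.367 against 6.32 ± 6.67 CPM, -3.46, adjusted p = 0.00468), and Fkbp5 (80.4 ± 32.8 against 297 ± 28.5 CPM, -1.89, adjusted p = 0.000660), a co-chaperone induced by glucocorticoids. The fourth ns culture was the highest for the 3 subunits, and without it the log2 fold change was -1.19 for Scnn1a, -2.52 for Scnn1b and -2.38 for Scnn1g, each still called. The channel is made mainly in the distal nephron and collecting duct, and the 6 distal and collecting duct markers summed to 6.58 to 28.8 CPM in ns and 0.518 to 0.865 CPM in sen PTEC (2 of 2 tested lower); their part in the result was not tested. In kidney edgeR called 0 of the 9 between 24 and 3, 12 and 3, and 24 and 12 months, beside 2.34%, 2.58% and 1.33% of all genes. In the same order 2, 1 and 0 had an unadjusted p under 0.05, with no share over all genes at that p.

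The genes whose level ran most like Ren1 over the 9 kidneys, out of 13318 genes that averaged 1 CPM or more, were Ppp3r1 (r = 0.96), Car5b (r = 0.96) and Trap1 (r = 0.95). For Ace they were Ece1, Aldh1l1 and Mios (r = 0.99 each), and for Agtr1a Gpam, Enpp3 and Klf12 (r of 0.98 to 0.99). These are descriptions over 9 libraries, picked as the highest of many.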
